A study of Homo sapiens with 12 samples.

Results

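The genes described here were 10 of the 35238 in the table, read as 5 pairs on the same strand: NDUFA13 and CILP2, ZNF592 and ALPK3, ATP13A3 and GP5, RPL22 and CHD5, and PKM and GRAMD2 (current symbol GRAMD2A). In each pair the gene upstream was expressed in untreated cells and the gene downstream was nearly silent. The downstream genes were chosen by their values in these libraries, CILP2, ALPK3 and GP5 on aristolochic acid I (AAI) against vehicle in control cells, CHD5 on the same contrast in knockdown cells, and GRAMD2 on knockdown against control with AAI, so those values are given as a description with no test. All cells were HK-2, an established human proximal tubule line, and all received 10 nM of short interfering RNA, either scrambled (SCR) or directed at POLR2A (siB). Together with the siRNA they were given DMSO, the vehicle, or 25 µM AAI, a plant toxin that damages DNA, for 24 hours. Each of the 4 groups (SCR DMSO, SCR AAI, siB DMSO and siB AAI) had 3 libraries. Nothing in the labels said that replicates came from separate cultures, so every p measures the spread between these libraries, which may be technical, and in bulk RNA a change in the number of cells of a type and a change in RNA per cell cannot be told apart.

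Transcription by RNA polymerase II does not stop where the mature RNA ends. The polymerase passes a polyadenylation signal, the RNA is cut there by the cleavage and polyadenylation complex, and the enzyme runs on until it is released. In stressed cells of several kinds, release is known to come late, and the transcript can then extend into the gene that lies next on the strand. Counts per gene, such as those used here, cannot show whether reads in a downstream gene began at its own promoter or farther upstream.

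The level of a gene is given in CPM (reads of the gene scaled to a library total of 1000000), and a change as a difference on the log2(CPM + 1) scale, which understates the change of low genes. Depth ran from 15844015 to 42805294 reads per library, and the limit that 0 reads allow (3 reads) from 0.0701 to 0.189 CPM, for counting error only. POLR2A, the target of the knockdown, stood in SCR cells at 284 ± 24.2 CPM (SD, n = 3) before and 707 ± 30.1 CPM after AAI, and in siB cells at 139.7 ± 2.61 and 232 ± 29.5 CPM. Of 15 proximal tubule markers, 5 (PAX8, KRT8, KRT18, CDH2 and GGT1) had a mean of at least 10 CPM in SCR DMSO and 9 a mean under 1 CPM, with the organic anion transporter SLC22A6 at 0 reads in 11 of the 12 libraries. SCR DMSO replicate 2 was the deepest library and stood apart from its group in several upstream genes, as given below.

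The pairs lay on 4 chromosomes of hg38 (gene spans from GENCODE release 44). NDUFA13 (chr19:19515736-19529054, plus strand) and CILP2 (chr19:19538248-19546659) were 9193 bp apart. Another gene of the same strand, YJEFN3 (chr19:19528861-19537581), filled most of that gap, overlapped the end of the NDUFA13 span and stopped 666 bp before CILP2. The other pairs had no annotated gene of their strand in the gap. ZNF592 (chr15:84748592-84806445, plus strand) and ALPK3 (chr15:84817356-84873479) were 10910 bp apart, and ATP13A3 (chr3:194402672-194498364, minus strand) and GP5 (chr3:194394821-194399266) 3405 bp. RPL22 (chr1:6185020-6209389, minus strand) and CHD5 (chr1:6101787-6180321) were 4698 bp apart, and PKM (chr15:72199029-72231819, minus strand) and GRAMD2 (chr15:72159806-72197787) 1241 bp. The annotation also holds read-through genes that run from NDUFA13 into YJEFN3 and from RPL22 into CHD5, with no row of their own in the table. Reads that fall in exons shared by NDUFA13, YJEFN3 or RPL22 and these genes are therefore uncertain.

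The transcripts of NDUFA13, ZNF592, ATP13A3, RPL22 and YJEFN3 ended at a polyadenylation signal of the 2 commonest forms. The 30 bases below (hg38, 5′ to 3′) come from the canonical transcript of GENCODE release 44. They are shown because they hold the signal near where each of these RNAs is annotated to stop. Those of ZNF592 and RPL22 begin at the hexamer and stop short of the annotated end. Capitals mark the hexamer AATAAA or ATTAAA.
NDUFA13, chr19:19528169-19528198, plus strand: tgggacggAATAAAtgctctgcagacctgg
ZNF592, chr15:84806409-84806438, plus strand: ATTAAAaagcacacatatttataatctctt
ATP13A3, chr3:194402677-194402706, minus strand: tattcaaAATAAAaattttaatgaatgaaa
RPL22, chr1:6185025-6185054, minus strand: ATTAAAgtggctaacacctggctactctta
YJEFN3, chr19:19537552-19537581, plus strand: ccctcgccAATAAAcagccctcccaccacc
The hexamer began 22, 37, 23, 35 and 22 bases before the end of these transcripts, in the same order. Either hexamer was found near the end of 79.4% of 19036 protein-coding canonical transcripts, so the signal is a common feature and not one particular to these genes.

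The start regions of the downstream genes (300 bases that span the annotated start, from RefSeq, GRCh38.p14) are shown because CILP2, ALPK3 and GP5, which all exceeded 50 CPM in each SCR AAI library, differed in the composition of theirs. Capitals mark the TATA motif TATAAA, the motif CCAAT and the GC box motif GGGCGG, searched on both strands, and matches that overlap run together. Entries were found for CILP2, ALPK3, GP5 and GRAMD2.
CILP2, chr19:19538015-19538314, plus strand: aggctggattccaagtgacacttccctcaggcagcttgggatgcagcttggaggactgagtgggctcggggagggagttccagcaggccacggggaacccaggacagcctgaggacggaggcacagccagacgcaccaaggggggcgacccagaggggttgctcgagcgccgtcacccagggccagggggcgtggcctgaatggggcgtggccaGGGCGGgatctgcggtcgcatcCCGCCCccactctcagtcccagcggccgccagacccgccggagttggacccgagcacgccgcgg
ALPK3, chr15:84817106-84817405, plus strand: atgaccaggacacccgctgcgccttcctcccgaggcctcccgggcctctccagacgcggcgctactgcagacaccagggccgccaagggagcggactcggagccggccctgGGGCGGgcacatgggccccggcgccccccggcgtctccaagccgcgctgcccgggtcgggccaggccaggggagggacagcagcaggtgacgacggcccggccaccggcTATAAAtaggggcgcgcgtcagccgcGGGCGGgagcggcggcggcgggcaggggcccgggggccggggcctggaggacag
GP5, chr3:194399217-194399516, minus strand: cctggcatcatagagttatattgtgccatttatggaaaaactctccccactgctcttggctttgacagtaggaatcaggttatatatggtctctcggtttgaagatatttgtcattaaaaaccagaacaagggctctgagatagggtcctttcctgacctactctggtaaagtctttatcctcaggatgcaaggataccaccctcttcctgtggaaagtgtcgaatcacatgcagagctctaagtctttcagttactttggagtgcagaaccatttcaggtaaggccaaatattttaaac
GRAMD2, chr15:72197738-72198037, minus strand: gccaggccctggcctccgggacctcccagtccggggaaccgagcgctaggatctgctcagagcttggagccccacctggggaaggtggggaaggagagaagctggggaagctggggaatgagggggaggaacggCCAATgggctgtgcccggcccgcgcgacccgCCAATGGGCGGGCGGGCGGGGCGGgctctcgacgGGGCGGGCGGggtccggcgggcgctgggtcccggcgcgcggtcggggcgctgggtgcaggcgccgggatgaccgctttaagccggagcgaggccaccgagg
GC content was 70.3% for CILP2, 78.0% for ALPK3, 42.0% for GP5 and 75.3% for GRAMD2, against a median of 58.7% over 35116 promoters. ALPK3 held TATAAA once and GGGCGG at 2 places, CILP2 held GGGCGG at 2 places, GRAMD2 held CCAAT at 2 places and GGGCGG at 6, and GP5 held none of these letters in this window. Over all promoters, TATAAA was found in 11.5%, CCAAT in 34.6% and GGGCGG in 45.0%. A match is a string of letters and no proof of a site.

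No upstream gene passed the test for AAI in SCR cells. These are genes that most cells use: NDUFA13 is a subunit of mitochondrial complex I, ZNF592 a zinc finger protein, ATP13A3 a polyamine transporter of endosomes, RPL22 a protein of the large ribosomal subunit and PKM the pyruvate kinase of glycolysis. NDUFA13 was at 54.0, 127 and 62.6 CPM in SCR DMSO and at 72.7, 69.6 and 51.1 CPM in SCR AAI. ZNF592 was at 56.1, 48.2 and 55.0 CPM and then at 50.9, 59.0 and 63.8 CPM. In both genes the groups overlapped. ATP13A3 was at 377, 78.4 and 245 CPM in SCR DMSO and at 383, 231 and 327 CPM in SCR AAI. RPL22 was at 399, 412 and 328.5 CPM and then at 479, 306 and 381 CPM, and PKM at 2269, 4521 and 3133 CPM and then at 2417, 2371 and 2424 CPM. These groups overlapped too, and in NDUFA13, ATP13A3 and PKM the second SCR DMSO library was the one farthest from its group. In limma with Benjamini-Hochberg adjustment, 0 of 5 upstream genes had an adjusted p under 0.05, where 12.3% of all genes tested did (0 of 5 at an unadjusted p under 0.05, and 0 of 5 with voom). The differences were -0.24 for NDUFA13 (SE 0.34, adjusted p 0.688), 0.12 for ZNF592 (SE 0.21, adjusted p 0.747), 0.66 for ATP13A3 (SE 0.53, adjusted p 0.464), 0.02 for RPL22 (SE 0.23, adjusted p 0.973) and -0.40 for PKM (SE 0.29, adjusted p 0.415). Without SCR DMSO replicate 2 they were 0.13, 0.05, 0.01, 0.08 and -0.15, again with 0 of 5 past the threshold. Without SCR DMSO replicate 1, NDUFA13 stood at -0.48, ATP13A3 at 1.14 and PKM at -0.65, also with 0 of 5 past it. The median change over all genes was 0.18 here, and -0.0071 after rescaling by median-ratio size factors, under which ZNF592 stood at -0.08 and RPL22 at -0.19.

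In siB cells, ATP13A3 rose with AAI and 3 upstream genes moved by less than 2-fold. ATP13A3 was at 323, 175 and 156 CPM in siB DMSO and at 553, 398.5 and 387 CPM in siB AAI, with no overlap, and rose by 1.08 (SE 0.25, limma adjusted p 0.00556). It was the 1 upstream gene of 5 called raised (adjusted p under 0.05 and at least 2-fold, which 13.9% of all genes met), and 0 of 5 were called lowered (5.79% of all genes). That call rested on the fold limit: the rise was 0.97 with median-ratio size factors, and 0.97, 0.88 and 0.92 without siB DMSO replicates 2 and 3 and siB AAI replicate 1. RPL22 rose by 0.39 (SE 0.10, adjusted p 0.0107), from 332 ± 12.7 to 436 ± 42.0 CPM (SD, n = 3, in limma). ZNF592 fell by 0.37 (SE 0.12, adjusted p 0.0239), from 54.1 ± 2.68 to 41.7 ± 3.42 CPM, and PKM fell by 0.30 (SE 0.10, adjusted p 0.0262), from 3493 ± 167 to 2833 ± 41.7 CPM. NDUFA13 stood at 82.9 ± 8.51 and 77.7 ± 7.89 CPM, a difference of -0.09 (SE 0.12, adjusted p 0.552). The count of 4 of 5 genes at an adjusted p under 0.05 is to be read beside the 52.2% of all genes that passed in siB cells. It fell to 1 without siB DMSO replicate 2, to 2 without siB DMSO replicate 3, and to 0 when all 4 groups were fitted together.

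Between siB and SCR cells no upstream gene passed the test without pairing, in DMSO or with AAI. With AAI, ZNF592 and ATP13A3 passed once libraries were paired by replicate number. In DMSO, 0 of 5 upstream genes passed (adjusted p 0.9998 for each in limma, 0 of 5 at an unadjusted p under 0.05 and 0 of 5 with voom), as did 0 of 13606 genes in all (0.0%), of which 644 had an unadjusted p under 0.05. With AAI, 0 of 5 passed, against 9.28% of all genes (2 of 5 at an unadjusted p under 0.05, 0 of 5 with voom). ZNF592 was lower in siB AAI by 0.46 (SE 0.16, adjusted p 0.0999) and ATP13A3 higher by 0.52 (SE 0.21, adjusted p 0.137), in both with no overlap between the groups. The replicate numbers paired the libraries in this comparison, and with the replicate block both genes passed (ZNF592 adjusted p 0.0127, ATP13A3 adjusted p 0.00209), as did ATP13A3 without SCR AAI replicate 1 (0.68, adjusted p 0.0227). Over 15 alternatives the adjusted p ran from 0.0127 to 0.270 for ZNF592 and from 0.00209 to 0.610 for ATP13A3. The interaction of siRNA and AAI had an adjusted p of at least 0.318 for each of the 5 genes, against 1.61% of all genes past 0.05 (1 of 5 at an unadjusted p under 0.05, 0 of 5 with voom).

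The downstream genes went from near 0 to well over 10 CPM in at least 1 AAI group. They encode proteins of other tissues: CILP2 is a matrix protein of cartilage, ALPK3 a kinase of heart and skeletal muscle, GP5 glycoprotein V of the platelet surface, CHD5 a chromatin remodeller of neurons, and GRAMD2A a protein at contacts of the endoplasmic reticulum with the plasma membrane. Because these contrasts chose the genes, no p is given. For scale, 7.73% of all genes tested were called raised and 2.73% lowered in SCR cells, and 4 of the 5 downstream genes were past 2-fold there on the log2(CPM + 1) scale, as were 5 of 5 in siB cells.

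CILP2 had reads in every library. It was at 0.601, 0.888 and 0.699 CPM in SCR DMSO and at 98.6, 132 and 113.5 CPM in SCR AAI. The siB libraries had 0.641, 1.22 and 1.51 CPM with DMSO and 107, 106 and 112 CPM with AAI. The AAI libraries of SCR and siB cells overlapped, and lay 157.5-fold and 96.5-fold above DMSO as a ratio of means. ALPK3 was at 0.0462, 0.234 and 0.0735 CPM in SCR DMSO (1, 10 and 2 reads) and at 90.1, 55.1 and 66.4 CPM in SCR AAI. The siB libraries had 0.0428, 0.316 and 0.0558 CPM (1, 7 and 1 reads) and then at 101, 66.8 and 67.4 CPM. ALPK3 was thus 599-fold higher with AAI in SCR cells and 567-fold higher in siB cells, on a base of few reads, and the AAI groups overlapped.

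GP5 had 0, 1 and 1 reads in SCR DMSO and 0 reads in each siB DMSO library, which allows up to 0.128, 0.135 and 0.167 CPM. With AAI it was at 57.4, 53.5 and 65.2 CPM in SCR cells and at 55.4, 43.5 and 48.9 CPM in siB cells. Against the mean limit of 3 reads per library, GP5 was at least 552-fold higher in SCR cells and at least 343-fold higher in siB cells. Of the 5 downstream genes it had the lowest level in DMSO, by CPM and per kb of exon length.

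CHD5 and GRAMD2 differed from the other genes in that AAI raised them to a higher level in siB than in SCR cells. Their choice favoured this, since CHD5 was chosen on AAI in siB cells and GRAMD2 on siB against SCR cells with AAI. CHD5 was at 0.0924, 0.280 and 0.257 CPM in SCR DMSO and at 57.5, 36.6 and 37.8 CPM in SCR AAI, 209-fold higher. In siB cells it had 2, 2 and 3 reads with DMSO and was at 152, 94.6 and 118 CPM with AAI, at least 848-fold higher. GRAMD2 was weak rather than silent, at 1.57, 0.911 and 0.993 CPM in SCR DMSO and at 1.496, 1.26 and 1.12 CPM in siB DMSO. It was at 4.58, 2.22 and 2.31 CPM in SCR AAI and at 35.5, 14.6 and 18.4 CPM in siB AAI, 2.62-fold and 17.7-fold above DMSO. The siB AAI libraries did not overlap SCR AAI for either gene, with a ratio of means of 2.77 for CHD5 and 7.53 for GRAMD2, in a comparison where 3.04% of all genes were called raised. The same ratio was 0.943 for CILP2, 1.11 for ALPK3 and 0.839 for GP5. In DMSO, the 1 comparison that did not choose it, GRAMD2 differed by 0.10 between siB and SCR cells (SE 0.19, limma adjusted p 0.9998), and CILP2, ALPK3, GP5 and CHD5 were too low to be tested.

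**Figure D1:**
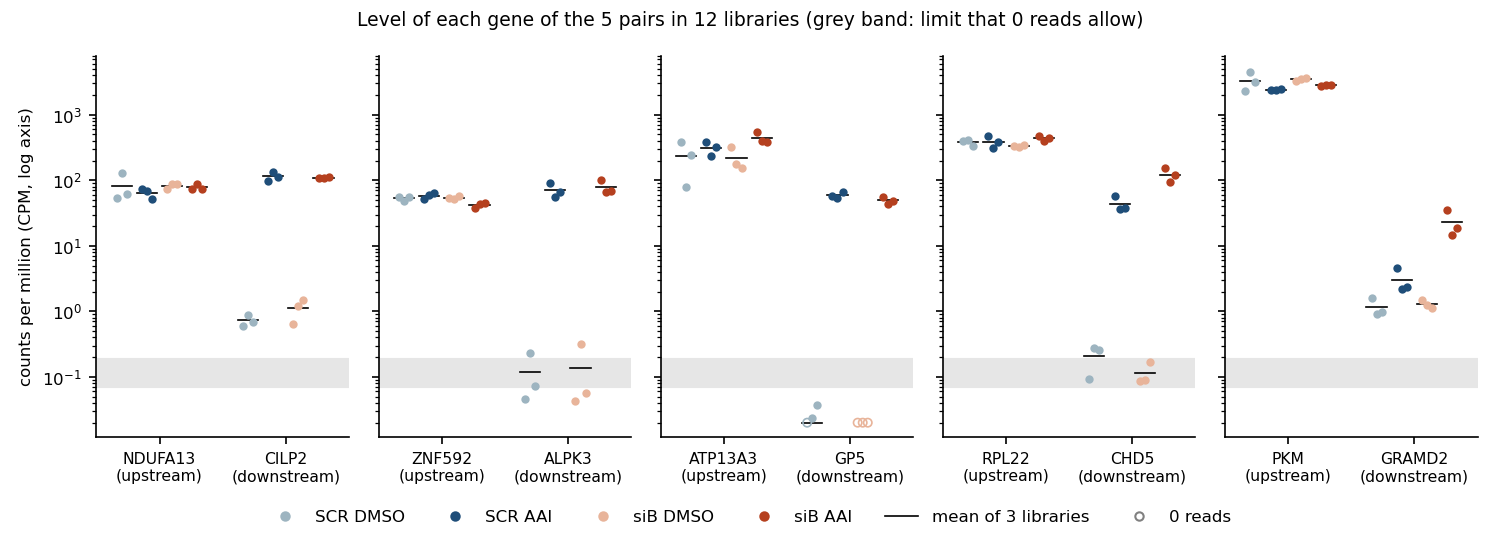
Level of the 10 genes in the 12 libraries, in CPM on a log axis, with 1 panel per pair, 1 point per library and a line at the mean of each group of 3. Libraries with 0 reads are open points at the foot of the axis and the grey band is the range of the limit that 0 reads allow. The upstream genes differ between groups by far less, with ATP13A3 and RPL22 higher and ZNF592 and PKM lower in mean in siB AAI than in siB DMSO, while CILP2, ALPK3, GP5 and CHD5 rise from about that limit or 1 CPM to between 36.6 and 152 CPM with AAI.

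Per kb of exon length, the downstream genes reached very different shares of their neighbours. The share was computed within each library as CPM per kb of canonical transcript, downstream over upstream, so that the scale of the library cancels. ALPK3 reached 142%, 74.7% and 83.3% of ZNF592 in SCR AAI and 212%, 125% and 121% in siB AAI, so that by length it was about as abundant as the gene before it. In DMSO its share was at most 0.488%. GP5 reached 32.3%, 49.96% and 43.0% of ATP13A3 in SCR AAI and 21.6%, 23.6% and 27.3% in siB AAI, lower in siB cells with no overlap, where ATP13A3 itself was higher. CILP2 reached 16.8%, 23.6% and 27.5% of NDUFA13 in SCR AAI and 18.1%, 15.2% and 18.9% in siB AAI, and these overlapped. CHD5 stood at 2.51%, 2.50% and 2.07% of RPL22 in SCR AAI and at 6.74%, 5.07% and 5.56% in siB AAI. GRAMD2 stood at 0.133%, 0.0657% and 0.0669% of PKM in SCR AAI and at 0.896%, 0.359% and 0.453% in siB AAI. These 2 genes, the lowest by share in both AAI groups, were the ones whose share was higher in siB cells with no overlap. Since GRAMD2 was chosen on siB against SCR cells with AAI and CHD5 on AAI in siB cells, their choice favoured this. The order of the shares did not follow the gap, since GRAMD2 had the shortest gap and the smallest share, and ALPK3 the longest gap and the largest.

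Without AAI no difference in these shares between siB and SCR cells was shown. As CPM over CPM, CILP2 was at 0.975% ± 0.240 of NDUFA13 in SCR DMSO and 1.33% ± 0.422 in siB DMSO (SD, n = 3, exact permutation p 0.3). The exact 2-sided permutation p was 0.9 for ALPK3, 0.4 for GP5, 0.4 for CHD5 and 0.9 for GRAMD2, with adjusted values from 0.67 to 0.9 over the 5 pairs. With 3 libraries against 3, the smallest p this test can give is 0.1. The shares also rest on few reads in DMSO, at most 1 per library for GP5, 10 for ALPK3 and 12 for CHD5. For these genes the test could hardly show a difference.

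**Figure D2:**
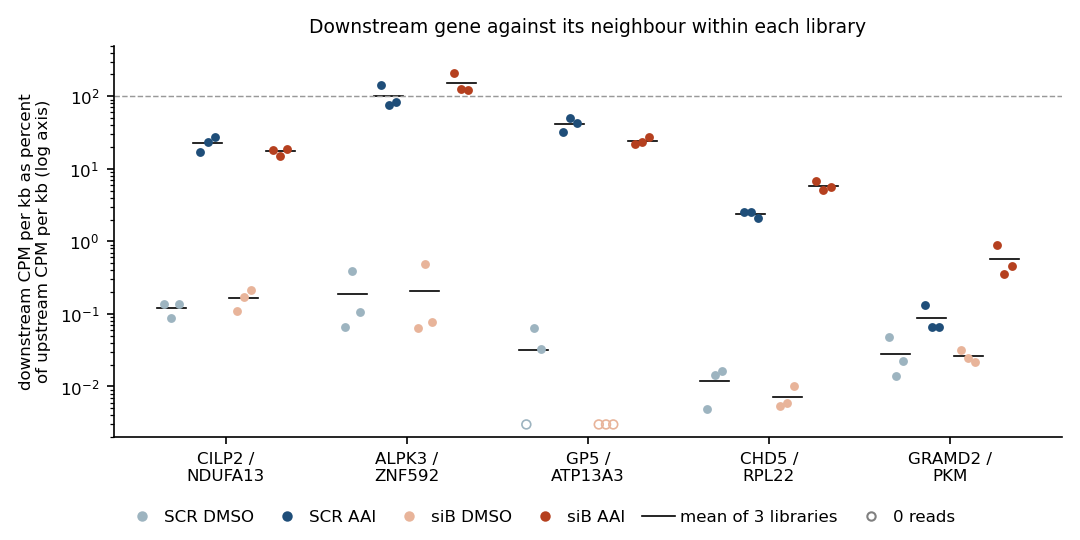
Level of each downstream gene as a percent of its upstream neighbour, both as CPM per kb of exon length, on a log axis, with 1 point per library, lines at group means, open points for 0 reads and a dashed line at 100%. ALPK3 lies around the dashed line with AAI, GP5 and CILP2 between 15.2% and 49.96%, and CHD5 and GRAMD2 lower, with siB AAI above SCR AAI.

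Genes farther along the strand gave values that the choice of pairs had not used. YJEFN3, between NDUFA13 and CILP2, was at 8.18, 5.23 and 5.88 CPM in SCR DMSO and at 20.8, 22.7 and 16.8 CPM in SCR AAI, with no overlap. It rose by 1.51 (SE 0.27, limma adjusted p 0.00961, and 1.42 with adjusted p 0.0594 without SCR AAI replicate 2, in a range of 5.48e-04 to 0.0594 over 15 alternatives). In siB cells it rose by 1.72 (SE 0.21, adjusted p 1.40e-04), from 6.81 ± 1.82 to 24.5 ± 3.64 CPM (SD, n = 3, limma). By CPM the rise of YJEFN3 was 3.12-fold and 3.59-fold, where that of CILP2, the next gene on the strand, was 157.5-fold and 96.5-fold.

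Past GP5, the next gene of the strand is LRRC15, a membrane protein of fibroblasts, which begins 32.9 kb after the end of ATP13A3. LRRC15 had 1 to 14 reads in each library of SCR DMSO, SCR AAI and siB DMSO, and 214, 113 and 156 reads in siB AAI, or 13.5, 5.22 and 8.36 CPM. It passed the filter on low values only through the 3 siB AAI libraries where it was high and so had to differ there. Its difference of 3.03 from siB DMSO and of 2.87 from SCR AAI is therefore given as a description. The interaction of 2.79 rests on the same filter and is a description too. Its adjusted p in limma ran from 0.00223 to 0.257 over 19 alternatives and is not read as support. CPN2, the regulatory subunit of carboxypeptidase N, follows LRRC15. In SCR cells it was at 1.39, 0.631 and 1.88 CPM without and at 1.93, 2.95 and 2.27 CPM with AAI. The siB libraries had 1.37, 1.67 and 1.12 CPM without and 8.46, 4.11 and 4.72 CPM with AAI, the latter above every other library. CPN2 rose in siB cells by 1.46 (SE 0.24, limma adjusted p 9.52e-04). In SCR cells the difference was 0.59 (SE 0.26, adjusted p 0.195), and its interaction of 0.87 had an adjusted p of 0.339. Past ALPK3, the nucleoside transporter SLC28A1 was too low to be tested, with 0 to 2 reads per DMSO library, 4, 12 and 5 reads in SCR AAI and 18, 22 and 10 in siB AAI.

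**Figure D3:**
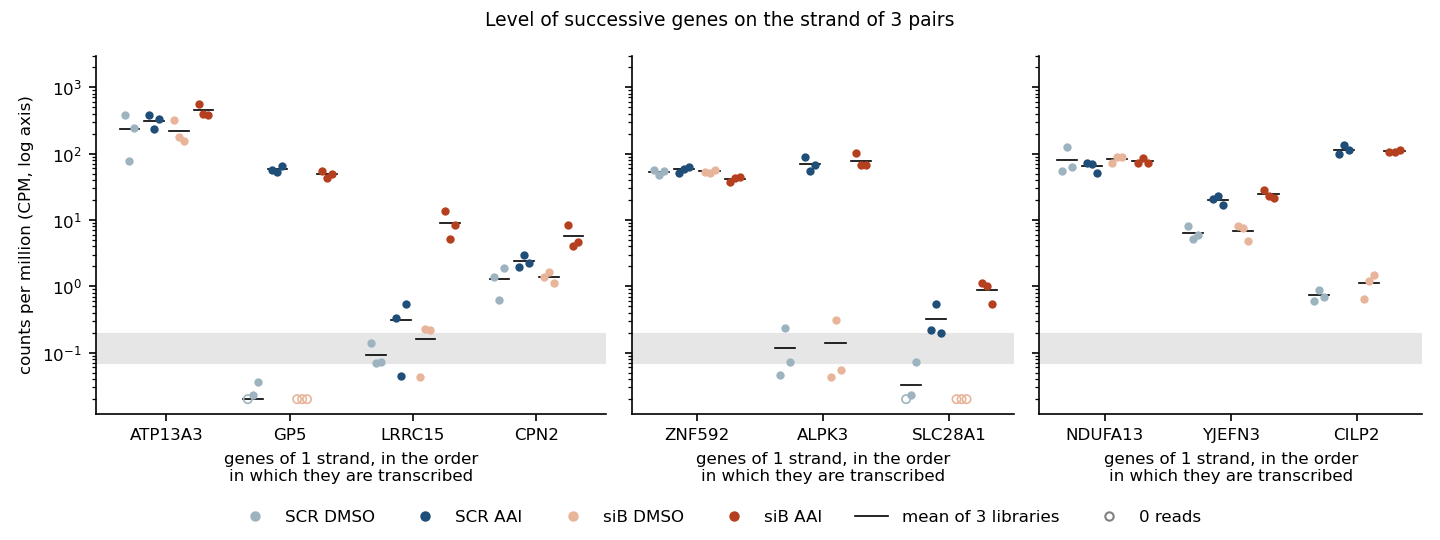
Level in CPM on a log axis of successive genes on the strand of ATP13A3, ZNF592 and NDUFA13, in the order of transcription, with 1 point per library, lines at group means, open points for 0 reads and a grey band for the limit that 0 reads allow. With AAI, GP5, ALPK3 and CILP2 rise in both SCR and siB cells, while LRRC15 is above 5 CPM in siB AAI alone.

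Within 100 kb of the pairs there were 22 other genes that reached 1 CPM in 3 or more libraries. In SCR cells 7 of the 21 tested were raised (7.73% of all genes) and 0 lowered. In siB cells 7 of 22 were raised (13.9% of all genes) and 0 lowered. These counts include CELF6 and, in siB cells, LRRC15, which passed the filter only through AAI libraries and so had to differ. On the strand opposite to the pairs, TSSK6, a kinase of testis, rose from 2.11 ± 0.355 to 18.5 ± 3.15 CPM in SCR cells (log2 change 2.64, SE 0.25, limma adjusted p 5.01e-04, n = 3) and from 2.14 ± 0.532 to 18.6 ± 1.57 CPM in siB cells (2.65, SE 0.18, adjusted p 5.45e-06). On the plus strand, GATAD2A ended at chr19:19508932 and so faced the end of TSSK6 at chr19:19512418. GATAD2A was at 169.9 CPM in SCR DMSO and 183.6 CPM in siB DMSO. TSSK6 had no expressed gene (mean of at least 10 CPM in DMSO) ending within 15 kb before it on its own strand. NMB, PBX4 and LPAR2, also raised in SCR cells, each lay behind such a gene. NMB, a neuropeptide, followed SEC11A by 10974 bp and rose by 1.83 (SE 0.31, adjusted p 0.00719). PBX4 and LPAR2, a homeobox factor and a lysophosphatidic acid receptor, followed GMIP and rose by 1.46 (SE 0.25, adjusted p 0.00845) and 1.57 (SE 0.26, adjusted p 0.00688). CELF6, an RNA binding protein near PKM with no such gene before it, stood at 0.0974 CPM without and 7.25 CPM with AAI. Its log2 difference of 2.88 in SCR cells is a description, since CELF6 passed the filter only through the AAI libraries. The last gene raised in SCR cells was ATP13A1, an ATPase of the endoplasmic reticulum, at 1.01 (SE 0.26, limma adjusted p 0.0421). It too had no expressed gene ending within 15 kb before it. The genes raised in siB cells were YJEFN3, TSSK6, NMB, LPAR2, CELF6, LRRC15 and CPN2.

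The arrangement of the pairs was shared by many silent genes. Taken as silent were 13689 genes, the members left out, with a mean under 1 CPM over the 6 DMSO libraries, and as expressed those with a mean of at least 10 CPM. Since most silent genes pass the filter only through the libraries where they are high, untested genes were counted as not raised. A class of 429 silent genes had an expressed gene ending within 15 kb before them on their strand and none within 15 kb in any other arrangement. Of these, 122 (28.4%) were called raised in SCR cells and 188 (43.8%) in siB cells. Of 10051 silent genes with no expressed gene within 15 kb, 0.836% and 2.92% were raised, and of all silent genes 3.42% and 6.98%. The shares differed with the place relative to the neighbour. They were 2.94% and 8.33% for 408 silent genes upstream of an expressed gene on its strand, 0.965% and 4.82% for 311 divergent ones, and 12.3% and 21.9% for 480 convergent ones, whose end faces the end of the neighbour. CILP2, ALPK3 and GP5 belong to the class of 429, CHD5 to a class of 407 with more than 1 arrangement (22.6% and 37.1% raised), since KCNAB2 ends toward it, and GRAMD2 was above the limit for silence. By rank of their change among 13694 genes, silent ones and members, CILP2, ALPK3 and GP5 were the first 3 in SCR cells and CHD5 was the first in siB cells, which the choice of the members had fixed.

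The shares by gap count only genes with no expressed gene in another arrangement within 50 kb. In SCR cells 29.4% of 34 silent genes within 2 kb were raised and 47.2% of 53 at 2 to 5 kb. At 5 to 15 kb it was 24.2% of 157, and at 15 to 50 kb 5.13% of 429. In siB cells the shares were 41.2%, 56.6%, 40.8% and 16.6%. The share was lowest in the class farthest away in both cells, and below 5 kb it did not fall with the gap. The next shares are for the other class of 429, the silent genes with an expressed gene ending within 15 kb before them. Per library, the share of these genes at 1 CPM or more was 42.0%, 36.6% and 36.6% in SCR AAI and 60.1%, 52.9% and 49.4% in siB AAI. The groups did not overlap (exact 2-sided permutation p 0.1, the smallest possible with 3 against 3). In the DMSO libraries it was between 0.932% and 4.66%. The same held for silent genes with no expressed neighbour, at 2.59% to 2.91% in SCR AAI and 5.43% to 8.39% in siB AAI (exact p 0.1), so a higher share in siB AAI was not particular to genes behind an expressed one. Depth was lowest in siB AAI replicate 1 and its part in these shares was not tested.

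**Figure D4:**
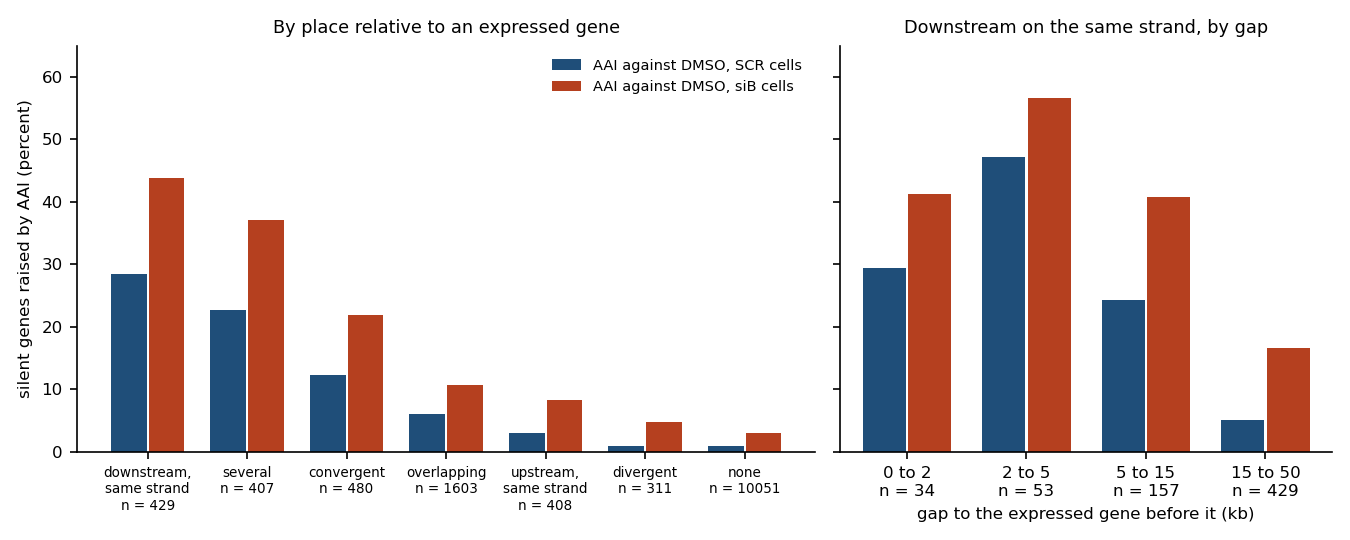
Percent of silent genes called raised by AAI in SCR and siB cells, with the number of genes under each pair of bars. At left, genes are split by place relative to an expressed gene within 15 kb. At right, genes downstream of an expressed gene on its strand are split by gap in kb. The latter had no expressed gene in another arrangement within 50 kb. Genes downstream on the same strand have the highest bars at left, 28.4% and 43.8%, and genes with no expressed neighbour the lowest, 0.836% and 2.92%.

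Markers of the tissues in which the downstream genes are known moved in part. Of 8 cartilage markers, 3 were tested in SCR cells, COL11A2 rose (3.05, SE 0.42, limma adjusted p 0.00280) and MATN3 fell by 1.14 (SE 0.29, adjusted p 0.0427). The summed level of the list was 18.8 to 34.4 CPM in SCR DMSO and 25.7 to 37.1 CPM in SCR AAI, 26.0 to 28.1 CPM in siB DMSO and 30.5 to 48.2 CPM in siB AAI. Of 10 striated muscle markers, 5 were tested in SCR cells and ACTA1, skeletal actin, was higher by 3.29. It passed the filter only through the AAI libraries where it was high, so this difference is a description. The muscle sums were 19.5 to 52.0, 56.0 to 61.5, 30.8 to 40.65 and 77.2 to 94.0 CPM in the same order of groups. Of 8 platelet markers, 4 were tested and ITGA2B, the integrin of platelets, rose (2.17, SE 0.24, adjusted p 9.80e-04). The platelet sums were 3.13 to 5.54, 17.7 to 18.2, 3.16 to 3.51 and 20.2 to 33.1 CPM, with 3, 3, 3 and 1 of the 8 markers at 0. Of 9 neuron markers, 6 were tested and SYT1 fell by 2.45 (SE 0.61, limma adjusted p 0.0376). RBFOX3 was higher by 1.22, also as a description, since it passed the filter only through AAI libraries. The neuron sums were 285 to 507.5, 386 to 485, 469 to 567 and 352 to 399 CPM. In siB cells, where 13.9% of all genes were called raised and 5.79% lowered, 2 of 5 cartilage, 3 of 5 muscle, 4 of 4 platelet and 1 of 7 neuron markers tested rose and 1 neuron marker fell. Of 8 markers of blood, endothelium and fibroblasts 5 were tested and 2 rose, PECAM1 and PTPRC. In siB cells ACAN, ACTA1, ACTC1, TNNT2, GP6 and PTPRC passed the filter only through the AAI libraries, as did ANPEP of the proximal tubule list. Such genes had to differ, so these counts over tested markers lean toward rises and are a description. COL11A2, ACTA1 and ITGA2B themselves lay behind an expressed gene of their strand, 1088 bp past RXRB, 6154 bp past NUP133 and 5631 bp past GPATCH8. Of the proximal tubule list, SLC5A2, a glucose transporter, was the 1 member of 7 tested called raised in SCR cells (1.75, SE 0.27, adjusted p 0.00443), and it lay 5041 bp past TGFB1I1. In siB cells 2 of 8 tested were raised, SLC5A2 and the peptidase ANPEP, and 4 of 8 were lower at an adjusted p under 0.05 but by less than 2-fold, with a median change of -0.35 over the list beside 0.10 over all genes. The summed level of the proximal tubule list was 1585 to 1895 CPM in SCR DMSO, 1478 to 1688 CPM in SCR AAI, 1717 to 1858 CPM in siB DMSO and 1330 to 1429 CPM in siB AAI. Not every raised marker lay behind such a gene. TNNT2 and GP6 did, 3068 bp past LAD1 and 843 bp past RDH13, while ACAN, ACTC1, GP1BA, GP1BB, RBFOX3, PECAM1, PTPRC and ANPEP had no expressed gene ending within 15 kb before them (genes named after their values were seen). The part of such cells in the levels of the downstream genes was not tested.

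The factors that cut and release transcripts were present throughout. All 34 genes of a list of 3′ end processing and termination factors had a mean of at least 10 CPM in every group. In SCR cells 0 of 34 were called in limma, with a median change of 0.36 beside 0.18 over all genes, and 0 had an adjusted p under 0.05. In siB cells 4 were raised (13.9% of all genes) and 0 lowered, 14 were higher and 5 lower at an adjusted p under 0.05 (52.2% of all genes in either direction), and the median was 0.18 beside 0.10. PCF11, which couples cleavage to release of the polymerase, rose by 1.74 (SE 0.21, adjusted p 1.54e-04) in limma. CSTF3, a subunit of the cleavage stimulation factor, rose by 1.43 (SE 0.14, adjusted p 4.22e-05) and RBBP6, another cleavage factor, by 1.31 (SE 0.29, adjusted p 0.00460). Between siB and SCR cells with AAI, 0 of 34 were called or had an adjusted p under 0.05.

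The genes most like each downstream gene over the 12 libraries, by Pearson's r of log2(CPM + 1), were FBXW10 for CILP2 (0.998), ACRC for ALPK3 (0.999), EFCAB8 for GP5 (0.999), PYY2 for CHD5 (0.998) and TRIM72 for GRAMD2 (0.991). These values mostly reflect the split between AAI and DMSO libraries and are given as a description. FBXW10, ACRC and EFCAB8 lay on the same strand as an expressed gene, 7907 bp past TRIM16L, 2544 bp past OGT and 8517 bp past MAPRE1, while PYY2 and TRIM72 had no expressed gene ending within 15 kb before them. TRIM72, a membrane repair protein of muscle, stood with AAI at 4.78 ± 3.03 CPM in SCR and 26.4 ± 13.3 CPM in siB cells (SD, n = 3), and PYY2 at 5.53 ± 0.480 and 11.4 ± 1.999 CPM.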

How the data were processed

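RNA of 12 HK-2 libraries was sequenced. The authors mapped the read pairs to hg38 and obtained a count per gene with BioJupies, per the study's methods. The aligner and the use of strand are not given in the sources used here. The authors deposited log10 values, log10(CPM + 1) of 35238 genes. CPM summed to 1000000 in every library, and 100.0% of values were whole reads (tolerance 0.05), so reads were recovered.

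Groups and replicate numbers came from the sample titles. The labels also hold a treatment entry, but it gives DMSO for all 12 libraries, even where the title says AAI, and was not used. Changes were tested in limma 3.58.1 (R 4.3.3, lmFit and eBayes with trend) on log2(CPM + 1), per pair of groups, over genes that reached 1 CPM in 3 or more of the libraries fitted, with Benjamini-Hochberg adjustment over all genes tested. Called means an adjusted p under 0.05 and at least 2-fold. The interaction was fitted over all 4 groups, at an adjusted p under 0.05 with no fold limit. A count model was not used, since the values are a log scale, and voom on the recovered reads was an alternative. The fit was tested on simulated data. Per-library shares were compared by exact permutation in SciPy 1.17.1. Spans and exon lengths came from GENCODE 44, matched by symbol for 27165 genes.

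The members, lists and tests were chosen with earlier results of these data known. Named genes were the members, POLR2A, genes within 100 kb of a pair that passed the filter, the gene most alike each downstream gene, and the called members of the lists, at most 3 per list and direction. SLC28A1, SEC11A, KCNAB2 and the other genes named only as neighbours were chosen by position. A sequence and a gene picked by these rules are not reported here.

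Whether replicate numbers pair libraries was checked over 15325 genes, by the correlation between libraries of 1 number after subtraction of the group mean. It was 0.42, 0.47 and 0.34 for AAI against DMSO in SCR cells and 0.61, 0.32 and 0.29 for siB against SCR with AAI, which were read as pairs. It was 0.21, 0.03 and 0.19 in siB cells and 0.73, 0.59 and -0.19 in DMSO, which were not. The alternatives tried were voom, fits with no trend or with a replicate block, no filter or one at a mean of 5 CPM, a pseudocount of 0.1, median-ratio size factors, CPM without AC010970.2 (an abundant transcript that varied within groups), all 4 groups in the fit, other limits for silent genes and gaps, and leaving out each library.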

Additional observations from a re-analysis of the deposited data

Results flagged for a closer look

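LRRC15, the gene past GP5 on the strand of ATP13A3, was flagged for an interaction of siRNA and AAI of 2.79 on the log2(CPM + 1) scale. It passed the filter on low values only through the siB AAI libraries where it is high. LRRC15 thus had to differ there, and the interaction is a description. The interaction did not pass in limma with a pseudocount of 0.1 (adjusted p 0.0527) or with voom (adjusted p 0.257). LRRC15 was higher with AAI in 3 of 3 siB libraries, at 5.22 to 13.5 CPM, and at 0.0453 to 0.548 CPM in SCR AAI.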

How the results depend on the processing

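Of the values for single genes, pairs and all genes called, 1247 were kept under an alternative, 53 moved, 23 no longer passed and 4 newly passed. Kept meant the same direction and side of the threshold for a tested gene. For untested genes and pairs it meant a shift smaller than the SD of the replicates, and for all genes called a similar count. Of the counts of upstream genes, the median shares and the shares of silent genes raised, 114 were kept and 26 moved, all given here. Most of those that moved were shares of silent genes under other limits for silence, neighbours or gaps. Small differences of upstream genes that had not passed changed sign in 17 cases, and the cause was not tested. With size factors, ZNF592 stood at -0.08 (AAI in SCR cells) and -0.05 (siB against SCR in DMSO) and RPL22 at -0.19 (AAI in SCR cells). The other sign changes came with a library left out. For AAI in SCR cells the range was then -0.48 to 0.13 for NDUFA13 (0.13 without SCR DMSO replicate 2) and -0.15 to 0.18 for RPL22. For siB against SCR in DMSO it was -0.11 to 0.50 for NDUFA13, -0.04 to 0.07 for ZNF592, -0.55 to 0.57 for ATP13A3 and -0.11 to 0.39 for PKM. For the interaction it was -0.22 to 0.39 for NDUFA13, -0.06 to 1.07 for ATP13A3 and -0.15 to 0.35 for PKM.

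The number of upstream genes past the threshold in siB cells was 4, 0 with all 4 groups in the fit and 1 to 4 with a library left out. Between siB and SCR cells with AAI it was 0, 2 with the replicate block, and 0 to 1 with a library left out. Where the numbers did not pair the libraries, the block gave 3 in siB cells (PKM was lost) and 0 in DMSO. With the block it was 0 in SCR cells and 0 for the interaction.

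The median share over the 5 pairs, as CPM over CPM, was 19.4% in SCR AAI (17.5% to 21.6% with a library left out) and 27.7% in siB AAI (25.4% to 29.4%), and per kb 22.65% and 17.4%, so that the order of SCR and siB cells turned. The share of silent genes raised behind an expressed gene, with that of genes with no expressed neighbour, was 36.7% and 1.77% in SCR cells with gaps up to 5 kb, 14.1% and 0.356% up to 50 kb, 35.8% and 1.74% with neighbours of at least 50 CPM, 20.3% and 0.412% with silence under 0.2 CPM and 38.9% and 1.58% among protein-coding genes. In siB cells these were 51.0% and 4.63%, 26.6% and 1.32%, 51.0% and 4.54%, 32.9% and 1.66%, and 60.8% and 5.81%. With a library left out the shares were 26.1% to 28.7% and 0.746% to 0.897% in SCR cells, and 42.7% to 44.3% and 2.70% to 3.02% in siB cells. In each setting the first share was the larger.

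All genes called varied: 1100 raised and 389 lowered genes in SCR cells became 474 and 250 at a mean of 5 CPM or more, 698 were lowered with size factors, and 247 genes past the interaction became 0 at that limit and with voom. With a library left out, 118 (SCR AAI replicate 3) to 749 (SCR DMSO replicate 2) genes were lowered in SCR cells, 81 (siB DMSO replicate 3) to 1010 (SCR DMSO replicate 2) passed the interaction, and the 454 raised in siB against SCR cells with AAI became 144 without SCR AAI replicate 3. Fewer than 4 reads stood behind many values of GP5, ALPK3 and CHD5 in DMSO, so their folds rest on the limit of detection. The use of strand in counting was not stated, and without it reads of overlapping genes cannot be told apart.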
